A study of Mus musculus with 80 samples.

Results

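Megakaryocyte-biased progenitors were studied among the cells that old hematopoietic stem cells (HSCs) gave rise to 14 days after transplantation. They were chosen by their measured *Pf4* and *Treml1* transcripts, as cells of the 2 day 14 single-cell libraries with at least 2000 detected genes, at most 5% mitochondrial transcripts and at least 2 unique molecular identifiers (UMIs, each marking 1 captured transcript) of *Pf4* and *Treml1* together. This gate held 1525 of the 4339 day 14 cells that passed the filters on genes and mitochondrial transcripts, of 8176 such cells in the 4 single-cell libraries of the series. The series asked how old HSCs with a low or a high surface level of CD150, the product of *Slamf1*, differ in state and in the cells they produce. Male C57BL/6 donors of 20 to 24 months carrying CD45.2 supplied HSCs (lineage-negative, Sca-1+, c-Kit+, CD48-, CD34-, CD150+), which were split into CD150low and CD150high cells. Each fraction was given to lethally irradiated young CD45.1 recipients together with Sca-1-depleted helper marrow, and on day 14 the donor-derived lineage-negative Sca-1+ c-Kit+ (LSK) marrow cells were sorted for droplet sequencing. There was 1 library for each fraction, and the number of donors and recipients behind it is not stated in the sources used here, so no difference between the fractions has a replicate check and intervals cover counting error only. Freshly sorted HSCs of young (2 to 4 months) and old mice, with 1 library each, served for comparison. So did bulk RNA-seq of old HSCs, either sorted by CD150 level or recovered 4 days after transplantation.

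Megakaryocytes are the large marrow cells that shed platelets. Their progenitors can branch from HSCs early and turn on genes for platelet granule proteins, and for the receptors by which platelets bind collagen, fibrinogen and von Willebrand factor. The transcription factors GATA1, FLI1 and others drive this program, and CD150high HSCs and HSCs of old mice are known for a bias toward platelets. *Pf4* encodes platelet factor 4, a chemokine of platelet alpha granules, *Treml1* a receptor of the same granules, *Vwf* von Willebrand factor, and *Itga2b* the integrin chain CD41. *Pf4* lies on chromosome 5 from 90772435 to 90773383, *Treml1* on chromosome 17 from 48359916 to 48367176, *Itga2b* on chromosome 11 from 102453297 to 102469883 and *Vwf* on chromosome 6 from 125552948 to 125686679 of GRCm38, the mm10 build of the files.

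The promoters of the 2 gate genes and of 3 genes whose levels rose with them in the cells below are shown, each from 250 bases before to 50 bases after a transcript start that RefSeq gives for GRCm38.p6. For *Gp9*, whose gene spans chromosome 6 from 87776131 to 87779786, this start lies inside the gene, and for the others it is the gene's first base. They lie at chr5:90772185-90772484 (*Pf4*, plus strand), chr17:48359666-48359965 (*Treml1*, plus), chr11:102469834-102470133 (*Itga2b*, minus), chr6:87777820-87778119 (*Gp9*, plus) and chr1:51288876-51289175 (*Cavin2*, plus). Capitals mark matches, on either strand, to GATAA (GATA factors), AGGAAG (ETS factors) or TGACAG (MEIS factors).
Pf4: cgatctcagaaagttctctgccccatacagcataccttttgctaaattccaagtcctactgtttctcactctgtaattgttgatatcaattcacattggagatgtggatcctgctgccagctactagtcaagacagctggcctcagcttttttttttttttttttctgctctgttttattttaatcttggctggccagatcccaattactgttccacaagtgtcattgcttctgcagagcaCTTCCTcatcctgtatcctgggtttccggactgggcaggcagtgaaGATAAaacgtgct
Treml1: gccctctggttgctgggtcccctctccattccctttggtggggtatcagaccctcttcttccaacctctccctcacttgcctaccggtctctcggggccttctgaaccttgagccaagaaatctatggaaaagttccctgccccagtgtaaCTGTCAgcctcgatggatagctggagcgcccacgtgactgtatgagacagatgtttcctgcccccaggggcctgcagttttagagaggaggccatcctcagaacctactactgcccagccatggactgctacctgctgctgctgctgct
Itga2b: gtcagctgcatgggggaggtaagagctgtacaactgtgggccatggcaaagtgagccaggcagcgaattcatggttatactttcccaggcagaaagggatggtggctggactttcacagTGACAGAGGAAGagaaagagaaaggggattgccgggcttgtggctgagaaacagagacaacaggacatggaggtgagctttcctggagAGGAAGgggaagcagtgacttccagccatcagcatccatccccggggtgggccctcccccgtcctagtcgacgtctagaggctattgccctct
Gp9: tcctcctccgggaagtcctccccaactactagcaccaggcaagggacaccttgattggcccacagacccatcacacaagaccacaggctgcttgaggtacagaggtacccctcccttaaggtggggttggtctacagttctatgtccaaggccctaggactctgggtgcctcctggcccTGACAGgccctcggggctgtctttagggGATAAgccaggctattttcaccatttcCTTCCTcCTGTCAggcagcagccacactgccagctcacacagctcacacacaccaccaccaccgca
Cavin2: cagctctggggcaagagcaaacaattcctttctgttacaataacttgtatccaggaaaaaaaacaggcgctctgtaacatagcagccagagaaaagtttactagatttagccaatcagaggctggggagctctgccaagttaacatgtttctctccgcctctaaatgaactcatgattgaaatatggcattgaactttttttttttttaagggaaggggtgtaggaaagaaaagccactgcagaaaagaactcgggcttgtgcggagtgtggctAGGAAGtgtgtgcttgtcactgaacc
The *Pf4* promoter held 1 GATA match, at bases 38 to 42 after the start, and 1 ETS match, at bases -9 to -4. The *Itga2b* promoter held 2 ETS matches and 1 MEIS match directly before the first of them, and the *Gp9* promoter held matches to all 3 motifs, while no base was shared between matches in any of the 5. Of all 32851 mouse promoters in the table, 25.4% held GATAA, 35.4% AGGAAG and 19.2% TGACAG, so such matches are common.

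Libraries differed in depth and in what their small barcodes held. The CD150low library had 3567 barcodes, 2406 kept cells and 50612605 UMIs in them, and the CD150high library 9631 barcodes, 1933 kept cells and 64097515 UMIs. Gated cells had a median of 21042 UMIs and 4623 genes in the CD150low and of 33168 UMIs and 5753 genes in the CD150high library. In the 793 CD150low barcodes with under 1000 genes, *Pf4* had a level of 195 CPM (counts per 1000000 UMIs), against 623 CPM in the 7400 such CD150high barcodes (exact Poisson 95% intervals 163 to 231 and 602 to 644), and the part of such free transcripts in the shares of gated cells was not tested. *Vwf* had 14.5 and 67.7 CPM in the same barcodes. A total of 12 barcode sequences occurred in both libraries, 3 of them among kept cells of both, and without the shared barcodes the gate held 23.8% and 49.3% of the cells. Scrublet marked 3 and 7 kept cells as doublets, few beside its assumed rate of 0.06. The true share of doublets was not measured and marked cells were not removed, so doublets may remain among the cells.

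Cells with *Pf4* and *Treml1* transcripts made up a larger share of the CD150high-derived than of the CD150low-derived LSK cells at each depth examined. Of the kept cells, 572 of 2406 CD150low-derived (23.8%, exact binomial 95% interval 22.1 to 25.5) and 953 of 1933 CD150high-derived cells (49.3%, 47.1 to 51.6) were in the gate, a difference of 25.5 percentage points (22.7 to 28.3). Thinned to 10878 UMIs per cell, which left out 395 CD150low and 39 CD150high cells with fewer, the shares were 17.0% (15.3 to 18.7) and 30.7% (28.6 to 32.8), and the difference 13.7 points (11.1 to 16.4). The difference was thus smaller at equal depth, with intervals that did not overlap between the libraries. Most cells in the gate did so with *Pf4* alone, as 553 and 912 of them had at least 2 *Pf4* UMIs.

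The cells near the threshold held few of these transcripts. The median sum of *Pf4* and *Treml1* UMIs in gated cells was 4 in the CD150low and 6 in the CD150high library, with maxima of 406 and 1102. Just inside the gate, with 2 to 3 UMIs, were 266 CD150low and 341 CD150high cells, and just outside it, with 1 UMI, were 457 and 412. The cells with 20 or more UMIs numbered 93, or 3.87% (3.13 to 4.72) of the CD150low-derived, and 275, or 14.2% (12.7 to 15.9) of the CD150high-derived cells. These few cells held 75.2% and 89.8% of all *Pf4* UMIs of the kept cells. At equal depth their shares were 2.98% (2.28 to 3.82) and 8.45% (7.23 to 9.79), a difference of 5.46 points (4.03 to 6.96).

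**Figure D1:**
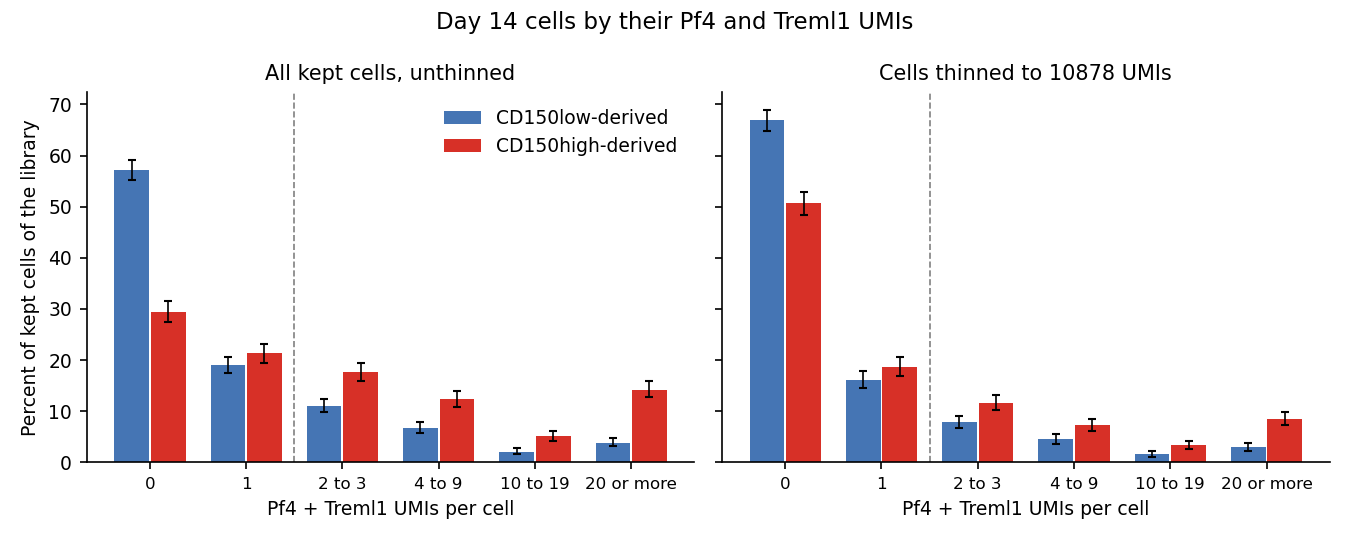
Percent of kept cells of each day 14 library (vertical axis) by their sum of *Pf4* and *Treml1* UMIs (horizontal axis), unthinned on the left and thinned to 10878 UMIs per cell on the right, with exact binomial 95% intervals and a dashed line at the gate. Cells without either transcript made up 57.2% of the CD150low and 29.4% of the CD150high library unthinned, and in both panels every class from 2 to 3 UMIs upward was larger in the CD150high library.

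The gate of 2 UMIs was also counted among cells that carried genes of other lineages. Of the cells with at least 2 UMIs of *Flt3*, a cytokine receptor of lymphoid-primed progenitors, 9.86% in the CD150low (median 24562 UMIs) and 21.0% in the CD150high library (median 35984 UMIs) were in the gate. Thinned, it was 6 of 154 such CD150low cells, or 3.90%, and 0 of 62 CD150high cells, which allows a share of up to 5.78% by the exact binomial interval. Of the cells with at least 5 UMIs of the granule protease genes *Elane*, *Prtn3* and *Ctsg*, 15.6% and 34.5% were in the gate, and 5.39% and 7.29% after thinning. This class held 1619 of 2406 CD150low and 1112 of 1933 CD150high kept cells unthinned, too many to mark 1 lineage. The gate of 20 or more UMIs held 0.494% and 4.23% of these granule gene cells and 0 of 416 and 2 of 181 *Flt3* cells. Unthinned, the gate thus held more of the CD150high cells in both classes, whereas the thinned shares had overlapping intervals between the libraries. Seen from inside the gate, granule gene cells made up 44.1% (39.9 to 48.2) of the CD150low-derived and 40.3% (37.2 to 43.5) of the CD150high-derived gated cells, and thinned 14.4% (10.8 to 18.6) and 6.71% (4.82 to 9.06). *Flt3* cells made up 7.17% (5.19 to 9.60) and 3.99% (2.84 to 5.43) of them unthinned. Granule gene cells were a larger share of the other kept cells, at 74.5% and 74.3% unthinned and 51.6% and 37.8% thinned. They were a smaller share of the cells with 20 or more gate UMIs, at 8.60% and 17.1% unthinned. Thinned, the shares in that class were 1.67% (0.0422 to 8.94) and 2.5% (0.685 to 6.28), with overlapping intervals. Among cells with a transcript of the stem cell gene *Procr* and none of *Cd48*, thinned shares were 8.20% (4.00 to 14.6) and 19.5% (14.8 to 25.0), and among cells with at least 2 UMIs of the erythroid genes *Klf1* and *Car1* they were 32.0% (15.0 to 53.5) of 25 and 17.7% (6.76 to 34.5) of 34 cells. Unthinned, the *Procr* class shares were 14.2% (9.80 to 19.7) and 38.2% (32.7 to 44.0). Those of the erythroid class were 46.15% (32.2 to 60.5) of 52 and 65.7% (55.4 to 74.9) of 99 cells. The direction in the erythroid class thus turned with thinning, and its intervals overlapped at both depths.

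Freshly sorted HSCs, which are not transplanted, were compared at a common depth of 9971 UMIs. The gate of 2 UMIs then held 11.9% of young fresh, 14.6% of old fresh, 16.3% of CD150low-derived and 29.2% of CD150high-derived cells. The gate of 20 UMIs held 2 of 979 young fresh cells (0.204%), 5 of 2391 old fresh cells (0.209%), 2.74% of CD150low-derived and 7.72% of CD150high-derived cells. Cells rich in these transcripts were thus rare in both fresh libraries, and the intervals of the day 14 libraries, 2.08 to 3.53% and 6.56 to 9.01%, lay above those of both fresh libraries, which reached 0.736% at most. Sort gate and time differed between fresh and day 14 cells as well, and their parts cannot be told apart.

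Along the sum of *Pf4* and *Treml1*, the other 2 markers were higher in both libraries, and *Vwf* mainly so in the upper classes. The sum chose the cells, so the values that follow are a description. *Itga2b* had 21.2 CPM in CD150low-derived cells with no gate transcript, 43.1 in those with 2 to 3 and 139 (exact Poisson 95% interval 123 to 156) in those with 20 or more, against 21.1, 30.1 and 106 (100 to 113) in CD150high-derived cells. *Vwf* had 3.40, 6.80 and 117 CPM (103 to 133) in CD150low-derived and 24.9, 37.9 and 151 CPM (144 to 159) in CD150high-derived cells. In CD150low-derived cells the intervals of *Vwf* at 0 (2.75 to 4.16) and at 2 to 3 UMIs (4.88 to 9.22) did not overlap, but most of its increase lay above 3 UMIs. At equal depth, 13.5% (9.75 to 18.1) of the CD150low-derived gated cells with under 20 UMIs had a *Vwf* transcript, against 70.0% (56.8 to 81.2) of those with 20 or more and 4.01% (3.12 to 5.07) of ungated cells. The CD150high-derived shares were 52.7% (47.8 to 57.6), 80.0% (73.0 to 85.9) and 25.7% (23.4 to 28.2), and unthinned the 6 shares were 15.2%, 75.3% and 5.89% in the CD150low and 56.5%, 95.6% and 32.2% in the CD150high library.

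Several other genes of the platelet surface and granules were also higher with the sum, whereas the granule proteoglycan gene *Srgn* had log2 ratios of gated over other cells of only 0.04 and -0.12. *Gp9*, a chain of the von Willebrand factor receptor, had 11.5, 24.7 and 96.9 CPM in CD150low-derived cells with 0, 2 to 3 and 20 or more gate UMIs, and 14.6, 24.9 and 74.7 CPM in CD150high-derived cells. *Gp5*, of the same receptor complex, had 3.69 CPM at 0 and 82.9 at 20 or more in CD150low-derived and 5.56 and 55.9 in CD150high-derived cells. *Mmrn1*, a granule protein that binds factor V, had 9.63 and 61.1, and 15.6 and 74.2 CPM. The membrane coat gene *Cavin2* showed the steepest course among these, from 3.61 to 252 CPM in CD150low-derived and from 18.3 to 353 CPM in CD150high-derived cells.

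Some genes of platelets were at or near 0 even in cells with 20 or more gate UMIs. They were picked after their values were seen. *Ppbp*, another platelet chemokine, had 10.2 CPM (6.30 to 15.6) in CD150low-derived and 7.77 (6.17 to 9.65) in CD150high-derived cells of this class, and *Thbs1*, thrombospondin, 4.85 and 3.84 CPM. *Gp6*, the collagen receptor, and *Myl9*, a myosin light chain, had 0 UMIs in this class of both libraries, and *Tubb1*, the tubulin of the platelet rim, had 0 and 2 UMIs.

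Some transcription factor genes of the lineage were higher along the sum, and stem and progenitor genes went both ways. *Gata1* had 6.01 CPM at 0 and 47.5 at 20 or more gate UMIs in CD150low-derived cells, and 12.4 and 46.2 in CD150high-derived cells. *Gfi1b*, a repressor needed for the erythroid and megakaryocyte lineages, had 17.8 and 88.7, and 17.8 and 84.5 CPM. *Fli1*, an ETS factor of the lineage, had 67.7 and 178, and 79.6 and 201 CPM. Against this, *Cd34* went from 381 to 41.2 CPM in CD150low-derived and from 272 to 23.7 in CD150high-derived cells, and *Hlf*, a stem cell factor, from 214 to 41.2 and from 147 to 28.4 CPM. *Ly6a*, the Sca-1 gene, had 219 and 63.5, and 278 and 49.4 CPM, and the granule gene *Mpo* 301 and 4.85, and 279 and 47.2 CPM. Of 10 stem cell genes compared between gated and other cells, 4 were higher in both libraries (*Slamf1*, *Ctnnal1*, *Tcf15* and *Mycn*) and 2 lower (*Hlf* and *Procr*), beside 1.33% and 1.5% of all compared genes. *Slamf1* itself had 9.73 and 50.4 CPM in CD150low-derived and 22.3 and 47.0 in CD150high-derived cells, so the libraries differed in ungated cells and had overlapping intervals at 20 or more. *Mki67*, a proliferation gene, was found in 65.0% (51.6 to 76.9) and 83.8% (77.1 to 89.1) of thinned cells with 20 or more UMIs, and unthinned in 76.3% and 92.0%. In ungated cells it was found in 69.1% (66.8 to 71.3) and 71.5% (69.0 to 73.9) thinned, and in 64.8% and 73.8% unthinned.

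**Figure D2:**
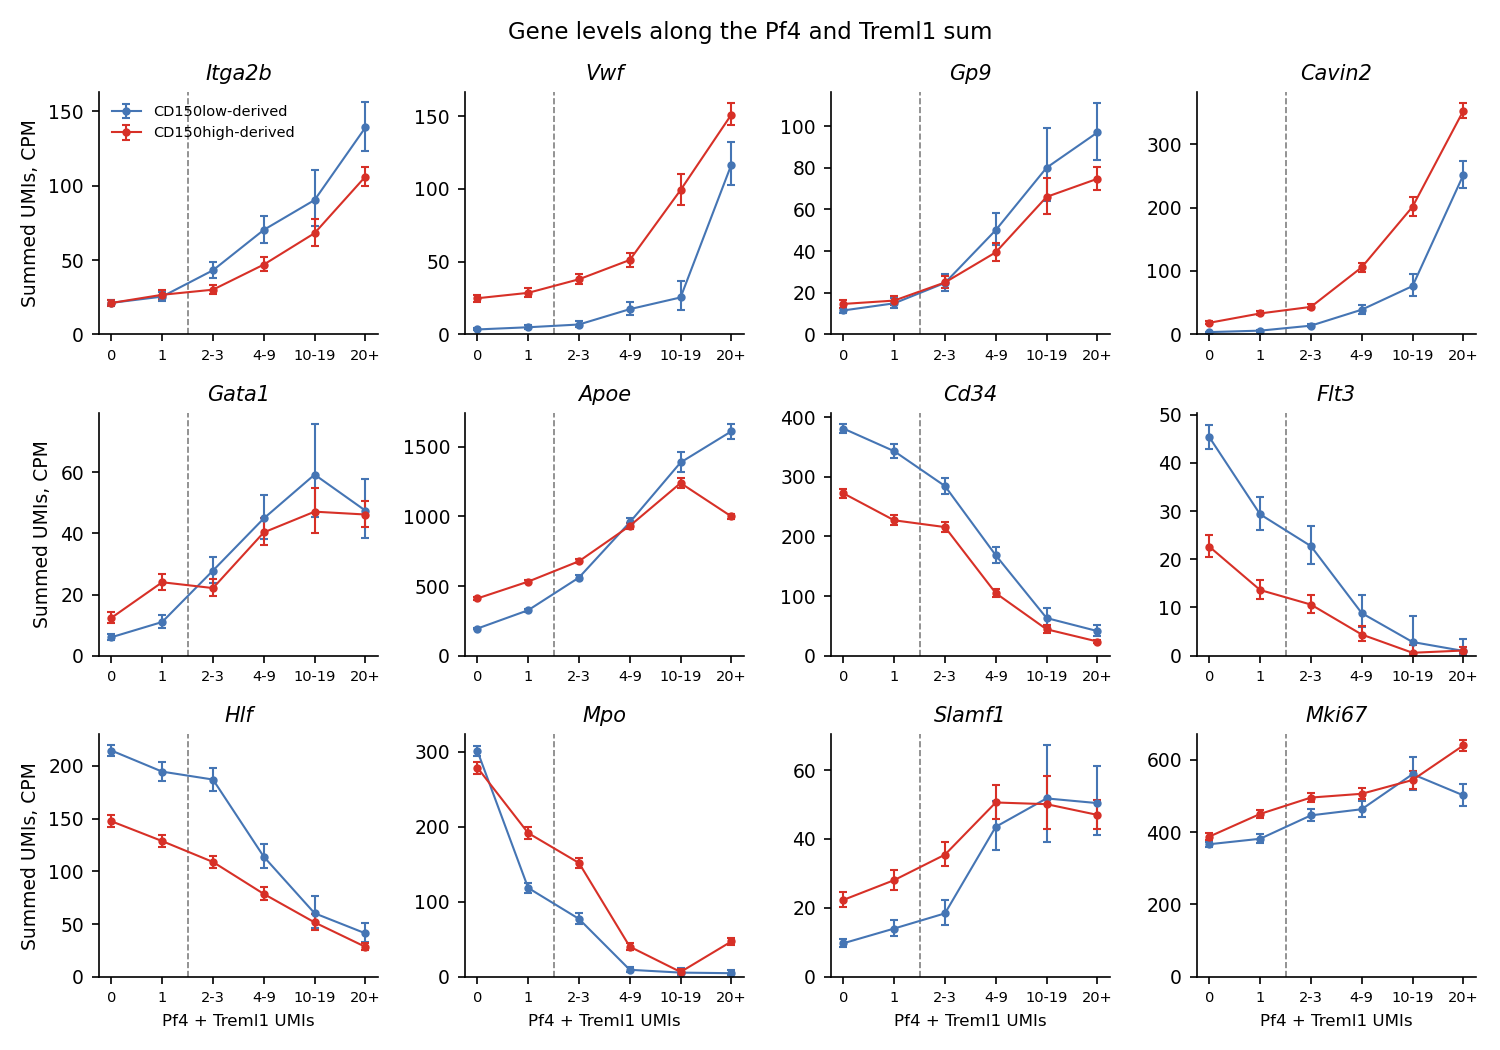
Level of 12 genes (CPM of summed UMIs, vertical axes) by the sum of *Pf4* and *Treml1* UMIs per cell (horizontal axes) in CD150low-derived (blue) and CD150high-derived (red) kept cells, with exact Poisson 95% intervals and a dashed line at the gate. *Itga2b*, *Vwf*, *Gp9* and *Cavin2* end highest at 20 or more, whereas *Cd34*, *Flt3* and *Hlf* start highest at 0.

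Gated cells were then set against the other kept cells over all genes, with a gene counted as higher or lower past 1.5-fold in both libraries. Of 6331 genes with at least 20 CPM, 84 were higher (1.33%) and 95 lower (1.5%). Of the 61 genes on 5 megakaryocyte lists (granule, receptor, transcription factor, cytoskeleton, signaling) without *Pf4* and *Treml1*, 44 could be compared, and 22 were higher and 0 lower, with median log2 ratios of 0.71 and 0.68 in the CD150low and CD150high library beside 0.02 and 0.03 over all genes. With the gate genes counted in, the receptor list had 8 of 9 higher, *Treml1* among them, and the granule list 3 of 7, *Pf4* among them, while the transcription factor list had 4 of 14. All 6 granulocyte and monocyte genes compared and all 3 lymphoid-primed genes were lower. Since the gate sum chose the cells, these counts say what came with it and nothing is read from them.

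Among single genes of at least 50 CPM in both libraries, ranked by the smaller of their 2 ratios, genes among the highest after *Pf4* included *Cavin2* (log2 3.94 and 2.78 in the CD150low and CD150high library), *Slc14a1*, a urea transporter (1.90 and 1.62), and *Itga2b* (1.66 and 1.38). *Aldh1a1*, a retinaldehyde dehydrogenase, had 1.44 and 1.12, and *Zfpm1*, the GATA1 cofactor FOG1, 1.29 and 0.99. *Rap1b*, a small GTPase of integrin activation, had 1.08 and 1.38, and *Ptgs1*, the platelet cyclooxygenase, 0.97 and 0.88. *Apoe*, an apolipoprotein also made by macrophages, had 1.99 and 0.95. It alone of 15 macrophage genes had enough UMIs to be compared, and it made up 1612 of 1641 and 1000 of 1034 CPM of that list in cells with 20 or more gate UMIs, where *C1qa* had 4.36 and 5.08, *Adgre1* 0 and 0.384 and *Mertk* 0 and 0.192 CPM. The lowest ratios belonged to *Prg2* (-7.04 and -7.41), an eosinophil granule gene, *Elane* (-3.37 and -2.66), *Ctsg* (-2.66 and -2.06), *Mpo* (-2.64 and -1.63) and *Prtn3* (-1.50 and -1.59). *Prg2* rested on 3 CD150low and 4 CD150high cells with 1 gate UMI, which held 1958 and 1676 UMIs of it. Of the 84 genes that were higher, 67 had a promoter in the RefSeq table, and 28.4% of these held GATAA, 52.2% AGGAAG and 22.4% TGACAG, beside 28.4%, 38.4% and 21.6% of all 27025 genes.

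**Figure D3:**
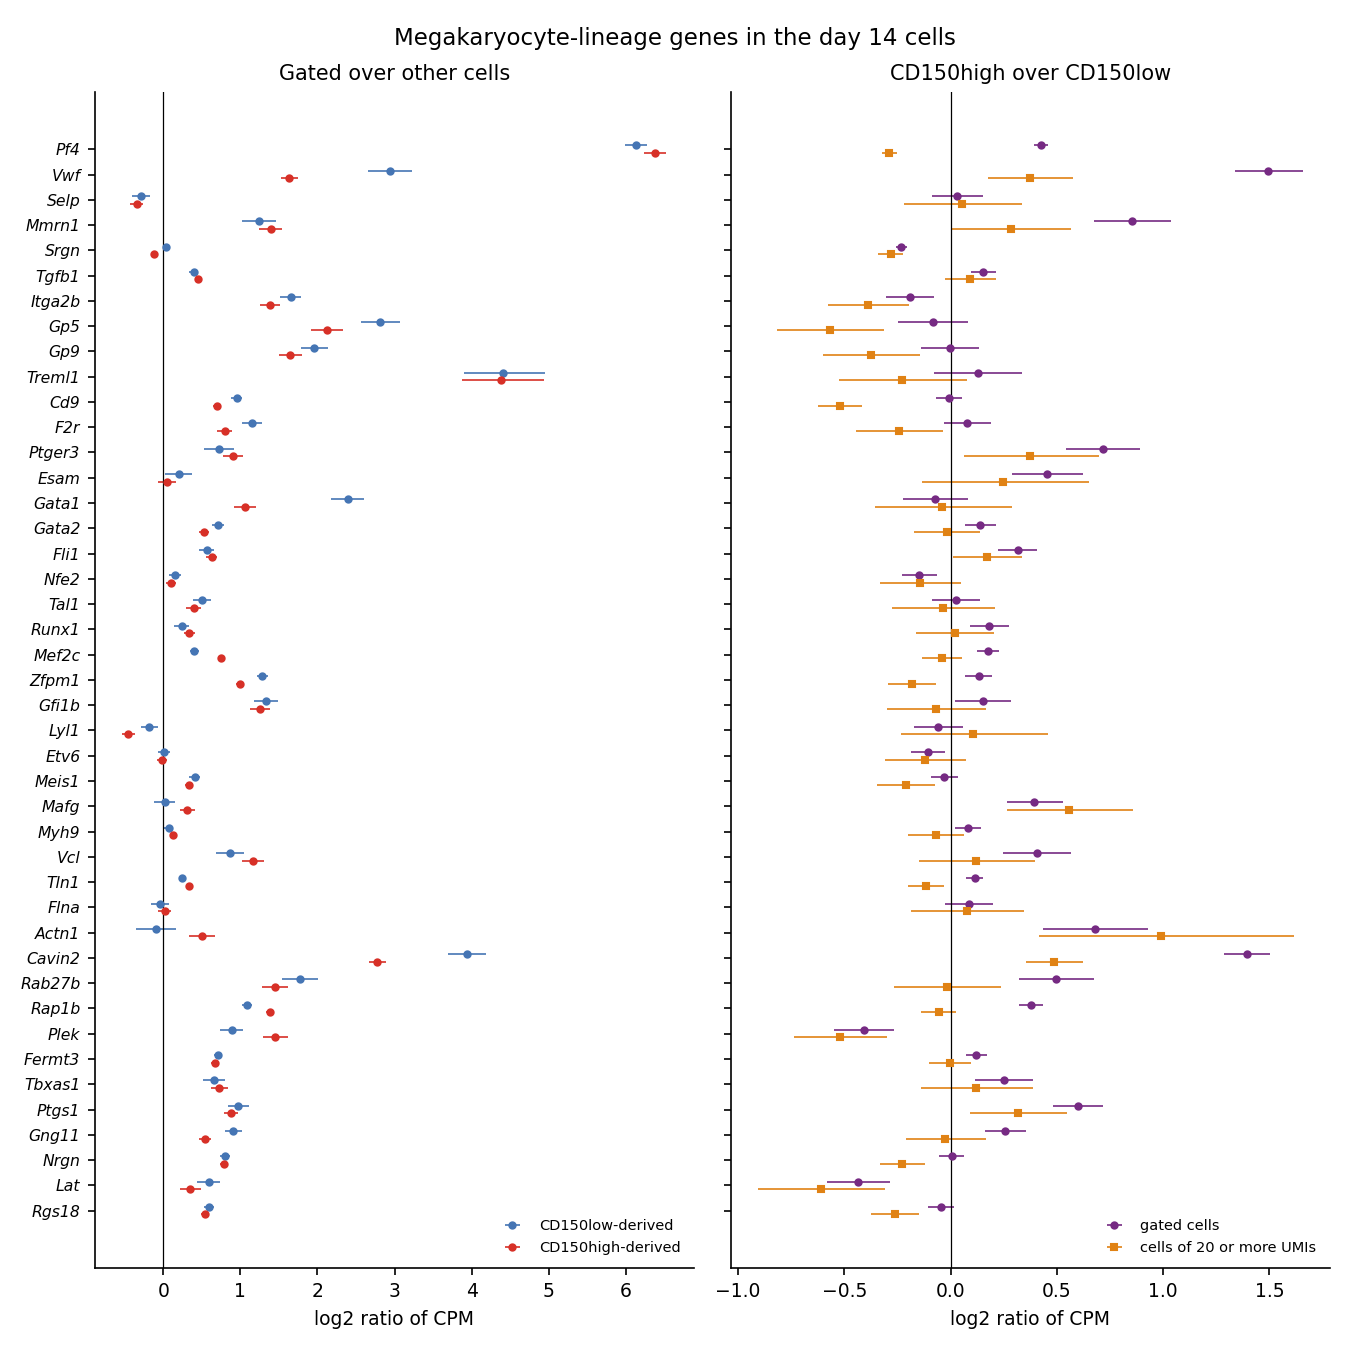
Log2 ratio of CPM (horizontal axes) for genes of the megakaryocyte lists with at least 20 CPM, as gated over other kept cells in each library on the left, and as CD150high-derived over CD150low-derived on the right for all gated cells (circles) and for those with 20 or more *Pf4* and *Treml1* UMIs (squares), with 95% counting intervals. On the left most points lie to the right of 0, and on the right *Vwf* (1.50) and *Cavin2* (1.39) stand apart in gated cells and lie at 0.37 and 0.49 in the class of 20 or more.

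CD150high-derived and CD150low-derived gated cells were compared over all genes. Levels in CPM are shares of all UMIs, not amounts per cell, and values over all gated cells mix cells with few and with many gate UMIs, which the libraries held in different shares. Gene ratios within classes of gate UMIs used unthinned cells. In the class of 20 or more, the median cell had 22404 UMIs in the CD150low and 36854 in the CD150high library. The same cut thus stood for a smaller share of a cell's UMIs in the CD150high library, and its part in these ratios was not tested. Of 6160 genes with at least 20 CPM in the gated cells of 1 library, 58 were at least 1.5-fold higher (0.942%) and 83 at least 1.5-fold lower (1.35%) in CD150high-derived cells, with a median log2 ratio of 0.05. Thinned to equal depth, 126 were higher and 136 lower. Of the 43 megakaryocyte list genes compared, 6 were higher (*Vwf*, *Cavin2*, *Mmrn1*, *Ptger3*, *Actn1* and *Ptgs1*) and 0 lower, with a median of 0.12. In the cells with 20 or more gate UMIs, where 2.4% of 6154 genes were higher and 1.28% lower, 1 of 47 list genes was higher (*Actn1*) and 2 were lower (*F2rl2* and *Lat*), with a median of -0.02. The summed level of the 61 genes was 6635 and 7045 CPM in gated CD150low-derived and CD150high-derived cells and 9736 and 9120 CPM in those with 20 or more UMIs.

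*Vwf* and *Cavin2* had the highest ratios of the megakaryocyte genes over all gated cells, and they differed outside the gate too. *Vwf* had 29.2 CPM (26.3 to 32.3) in CD150low-derived and 82.3 (79.3 to 85.4) in CD150high-derived gated cells, a log2 ratio of 1.50 (1.34 to 1.66), and 3.80 and 26.5 CPM in the other cells, a ratio of 2.80. In cells with 2 to 19 gate UMIs the ratio was 2.08. In cells with 20 or more gate UMIs its levels were 117 and 151 CPM, and the ratio 0.37 (0.18 to 0.57), under 1.5-fold. *Cavin2* had 64.7 CPM (60.4 to 69.3) and 170 CPM (166 to 175) in gated cells (log2 ratio 1.39, 1.29 to 1.50), 4.22 and 24.8 CPM in other cells (2.56), a ratio of 1.64 in cells with 2 to 19 gate UMIs, and 252 and 353 CPM in cells with 20 or more (0.49, 0.36 to 0.62). *Vwf* was also higher in the small barcodes of the CD150high library, as given above, and the part of free transcripts in these ratios was not tested.

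Most receptor genes and all transcription factor genes compared were under 1.5-fold apart. Of 9 receptor genes 1, the prostaglandin receptor gene *Ptger3*, was higher and 0 were lower, a count that includes the gate gene *Treml1*. *Itga2b* had 70.2 CPM (65.7 to 75.0) in CD150low-derived and 61.5 (58.9 to 64.2) in CD150high-derived gated cells, a log2 ratio of -0.19 (-0.31 to -0.08), -0.45 in those with 2 to 19 UMIs and -0.39 (-0.58 to -0.20) in those with 20 or more. *Treml1* had ratios of 0.13, -0.30 and -0.23 in the same 3 sets of cells. *Gp9* had 48.1 and 48.0 CPM, *Gp5* 34.2 and 32.2, *Gata1* 38.4 and 36.5 and *Gfi1b* 49.5 and 55.0 CPM in gated cells, all under 1.5-fold apart. *Pf4*, which chose the cells, had 777 and 1042 CPM in gated cells and 3738 and 3061 CPM in those with 20 or more. Its log2 ratio of CD150high-derived over CD150low-derived cells was 0.42 over all gated cells, but -0.52 in those with 2 to 19 UMIs and -0.29 in those with 20 or more, a class that held 275 of 953 CD150high-derived and 93 of 572 CD150low-derived gated cells. Both classes were cut on unthinned cells of unequal depth, as given above. Of 14 transcription factor genes, 0 passed 1.5-fold in either direction in gated cells or in those with 20 or more UMIs, with medians of 0.14 and -0.04. *Socs2*, a feedback inhibitor of JAK and STAT signaling, was past 1.5-fold, with 10.1 and 30.8 CPM (log2 ratio 1.61, 1.34 to 1.89).

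Immediate early genes, which cells switch on within minutes of a stimulus, made the largest group lower in CD150high-derived gated cells. Of 9 compared, 8 were lower, beside 1.35% of all compared genes, with a median log2 ratio of -1.02 and of -0.90 in the other cells. *Fos* had 54.8 CPM (50.8 to 59.1) in CD150low-derived and 2.49 (1.99 to 3.08) in CD150high-derived gated cells, a log2 ratio of -4.46 (-4.81 to -4.13), and -3.17 in other cells. *Fosb* had 71.0 and 3.35 CPM and *Jun* 240 and 60.2 CPM. The difference was seen in gated and other cells alike, and with 1 library each the CD150 fraction and the library cannot be told apart. Other genes among the 12 lowest were the histone gene *H2ac6* (log2 ratio -1.45), whose near-identical copies make its counts uncertain, *Lat2* (-1.04), *Cd52* (-1.004), *Sox4* (-0.98), *Jund* (-0.97) and the stem cell gene *Hlf* (132 and 70.8 CPM, -0.90). *Clec4e*, *Fam117a* and *Tespa1* had ratios of -0.91, -0.91 and -0.91. Thinned to equal depth, *Cd52*, *Fam117a* and *Tespa1* had ratios of -1.68, -1.38 and -1.67. In cells with 20 or more gate UMIs *Hlf* had a ratio of -0.54, under 1.5-fold.

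Several genes of an HSC aging list were higher in CD150high-derived gated cells. Of the 10 compared genes of an HSC aging list, which the study partly chose on old HSC samples of this series, 5 were higher and 0 lower, with a median log2 ratio of 0.71 in gated cells and of 1.24 in the other cells. These were *Clu*, clusterin (4.18 and 25.3 CPM, log2 ratio 2.60), *Vwf*, *Cavin2*, *Nupr1*, a stress-induced chromatin protein (39.8 and 98.6 CPM, 1.31), and *Mt1*, a metallothionein (58.7 and 119 CPM, 1.02). In cells with 20 or more gate UMIs *Nupr1* (1.49), *Clu* (1.45), *Ifitm1* (1.03) and *Mt1* (0.89) were higher. *Bex4* had the highest ratio among genes of at least 50 CPM, with 24.4 CPM (21.7 to 27.3) and 75.4 (72.5 to 78.4), a log2 ratio of 1.63. In cells with 20 or more gate UMIs the *Bex4* ratio was 0.92. Of 19 chaperone genes, *Hsph1* (0.79), *Sdf2l1* (0.67) and *Hsp90b1* (0.63) were higher and 0 were lower, with a median of 0.29 beside 0.25 in the other cells. In cells with 20 or more gate UMIs, 2 of 19 were higher and 0 lower, and *Sdf2l1* had 0.50, under 1.5-fold. Of 5 granulocyte and monocyte genes 3 were higher and 0 lower. The granule genes *Mpo* (40.6 and 77.7 CPM), *Ctsg* (60.4 and 109 CPM) and *Elane* (30.8 and 53.7 CPM) had log2 ratios of 0.94, 0.85 and 0.80, and thinned ones of 0.23, 0.43 and 3.02, so that *Mpo* and *Ctsg* no longer passed. With the gate at 3 UMIs the ratios were 2.45, 1.98 and 3.29, and at 20 UMIs 3.28, 3.32 and 4.43, so these values depended strongly on the gate. In cells with 20 or more gate UMIs, *Elane* had 5 UMIs in 5 CD150low-derived cells and 545 UMIs in 28 CD150high-derived cells, and whether doublets held them was not tested. *Mycn* (0.71), the prolyl isomerase gene *Ppic* (0.70), and of the stem cell list *Tcf15* (23.1 and 42.6 CPM, 0.88) and *Ctnnal1* (16.8 and 31.7 CPM, 0.91) were also higher. Of 9 stem cell list genes compared, 3 were higher and 1 lower, beside 0.942% and 1.35% of all compared genes. In cells with 20 or more gate UMIs, 0 of 9 passed in either direction, and *Mycn* had a ratio of 0.33, under 1.5-fold.

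Genes of the sort, of other lineages and of the cell cycle were compared last. Their counts stand beside 0.942% of all compared genes higher and 1.35% lower in gated cells. *Cd34* (194 and 112 CPM, log2 ratio -0.79) and *Cd48* (163 and 107 CPM, -0.61) were lower among 6 genes of the surface sort. Of 8 erythroid genes 3 were lower, all of them globins, with *Hba-a1* at 27.7 and 17.8 CPM. In barcodes with under 1000 genes *Hba-a1* had 3709 CPM in the CD150low and 67.1 CPM in the CD150high library, and the part of free globin transcripts was not tested. In cells with 20 or more gate UMIs the erythroid count was 2 higher and 0 lower of 7, beside 2.4% and 1.28% of all compared genes. *Car2*, a carbonic anhydrase gene, had 645 and 634 CPM. *Cpa3*, a mast cell protease, had 44.1 and 16.3 CPM (-1.43). Of 14 interferon-stimulated, 43 S phase and 53 G2/M genes 0 passed 1.5-fold in gated cells. In cells with 20 or more gate UMIs, 13 of 53 G2/M genes were higher in CD150high-derived cells, beside 2.4% of all compared genes. Their median log2 ratio was 0.38, beside 0.05 over all genes. Of the 58 genes higher in gated cells, 57 had the same sign and 19 passed 1.5-fold in the other kept cells, and of the 83 lower genes 81 had the same sign and 27 passed. Of the other cell type lists, 1 B cell gene was compared and did not pass, and no eosinophil, neutrophil or T cell gene had enough UMIs, while 0 of 80 ribosomal protein genes passed. The same 2 libraries gave both sets of cells, so this is no independent repeat.

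**Figure D4:**
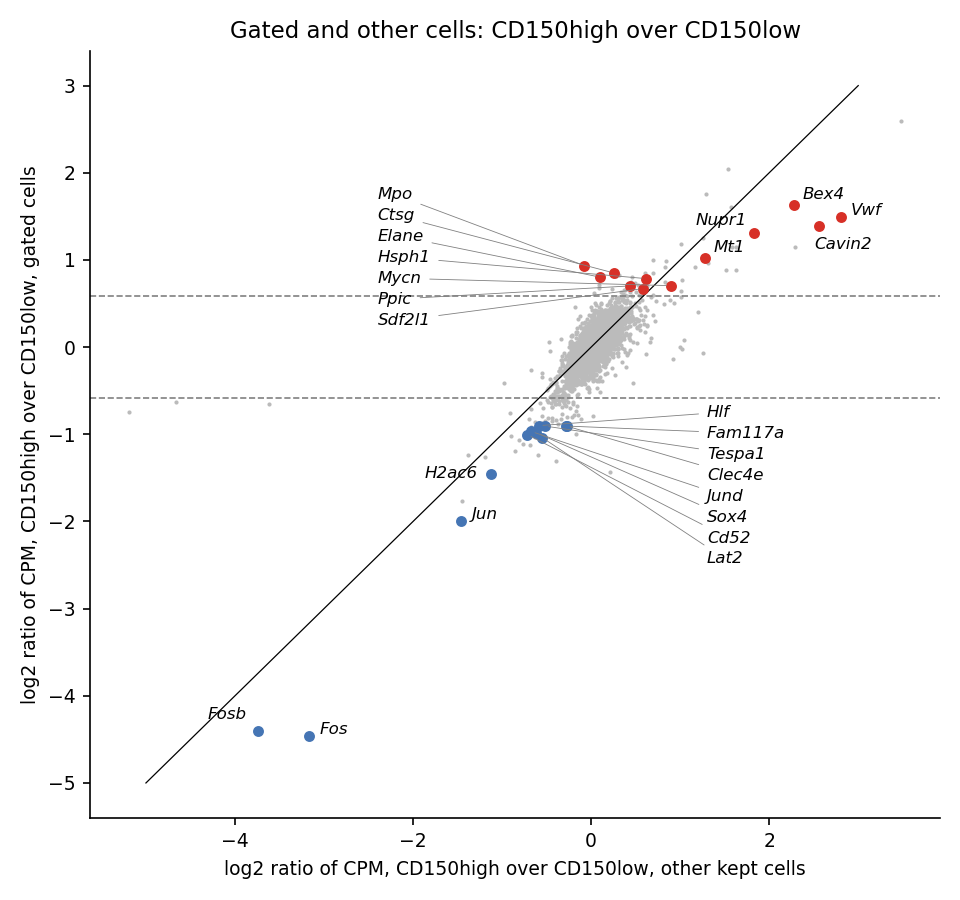
Log2 ratio of CPM, CD150high-derived over CD150low-derived, in gated cells (vertical axis) against other kept cells (horizontal axis) for all compared genes (grey), with the 12 highest (red) and 12 lowest (blue) genes of at least 50 CPM, the line of equal ratios and dashed lines at 1.5-fold. *Fos* and *Fosb* lie at the lower left, *Bex4*, *Vwf* and *Cavin2* at the upper right, and *Mpo*, *Ctsg* and *Elane* near 0 for other cells.

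Bulk libraries of separate old HSC samples gave the megakaryocyte genes a test across mice, although in bulk fewer cells of a type and less RNA per cell cannot be told apart. Old HSCs of 3 mice were each sorted into 4 groups of rising CD150 level, G1 to G4, and values are FPKM, which corrects a gene's fragments for its length and for sequencing depth. With limma on log2(FPKM + 1), which understates the changes of low genes, 13 of 11673 genes were higher in G4 than in G1 (0.111%) and 2 lower (0.0171%) at an adjusted p under 0.05. *Vwf* was the only 1 of 56 megakaryocyte list genes that passed, and 0 were lower, with a median log2 difference of 0.08 beside 0.01 over all genes. *Vwf* had 28.6, 33.8 and 39.1 FPKM in G1, 54.7, 57.5 and 49.0 in G2, 82.4, 97.4 and 68.0 in G3 and 86.2, 94.0 and 65.9 in G4. All G4 libraries were above all G1 libraries, while G3 and G4 overlapped. The log2 difference of G4 over G1 was 1.25 (standard error 0.19, limma adjusted p = 0.0274), and leaving out the first or second G1 mouse (limma adjusted p = 0.0753 and adjusted p = 0.0805) or the first or second G4 mouse (adjusted p = 0.188 and adjusted p = 0.121) ended the call, as did testing without a filter on low values (adjusted p = 0.0661). *Slamf1*, the gene of the sorted protein, had 29.4, 29.2 and 15.2 FPKM in G1 and 102.3, 79.3 and 89.0 in G4 (log2 difference 1.88, standard error 0.227, limma adjusted p = 0.00418), and without the first G4 mouse its limma adjusted p was 0.0526.

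*Pf4*, *Cavin2* and *Itga2b* did not pass between G4 and G1. *Pf4* had 112, 248.9 and 178 FPKM in G1 and 87.6, 85.1 and 89.0 in G4, with every G4 library below every G1 library and a log2 difference of -0.96 (limma adjusted p = 0.272). *Cavin2* had 86.9, 66.0 and 81.5 FPKM in G1 and 94.1, 101.5 and 118 in G4 (0.42, limma adjusted p = 0.455). *Itga2b* had 31.8, 19.4 and 12.8 FPKM in G1 and 19.4, 18.2 and 26.5 in G4, with overlapping groups. Among the 15 HSC aging genes 4 were higher in G4 (*Clu*, *Vwf*, *Slamf1* and *Sbspon*), with a median log2 difference of 0.90. *Slamf1* encodes the protein these groups were sorted by, and the list was partly chosen on old HSCs of this series.

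At 4 days after transplantation, old CD150low or CD150high HSCs recovered from recipients were compared in 3 bulk libraries each. In limma, 0 of 11077 genes were higher (0%) and 0 lower (0%) at an adjusted p under 0.05, where 442 and 384 had an unadjusted p under 0.05 and the smallest adjusted p was 0.186. A fit over all 24 bulk libraries called 20 higher and 11 lower. *Vwf* had 21.3, 19.04 and 15.6 FPKM in CD150low-derived and 45.0, 41.2 and 63.5 in CD150high-derived libraries, a log2 difference of 1.36 (standard error 0.215, limma adjusted p = 0.221, and 0.00600 in the fit over all libraries). *Cavin2* had 11.7, 10.7 and 8.93 FPKM against 38.4, 22.7 and 23.6 (1.32, limma adjusted p = 0.282, and 0.00132). The groups did not overlap for either gene, in the same direction as on day 14, but the limma test of the 6 libraries alone did not pass. *Slamf1* had 14.2, 14.9 and 16.8 against 28.2, 26.9 and 33.3 FPKM (0.90, limma adjusted p = 0.329). *Pf4* had 78.3, 87.2 and 53.8 against 107, 74.6 and 59.9 FPKM, and *Itga2b* 6.53, 15.7 and 8.40 against 4.27, 10.2 and 9.19, both with overlapping groups. Of 55 megakaryocyte list genes 0 passed in either direction, with a median log2 difference of 0.17 beside 0.01 over all genes. *Fos*, so much lower in the CD150high library of day 14, had 6.02, 1.59 and 11.1 against 0.399, 4.35 and 7.06 FPKM on day 4 (log2 difference -0.62, limma adjusted p = 0.838).

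**Figure D5:**
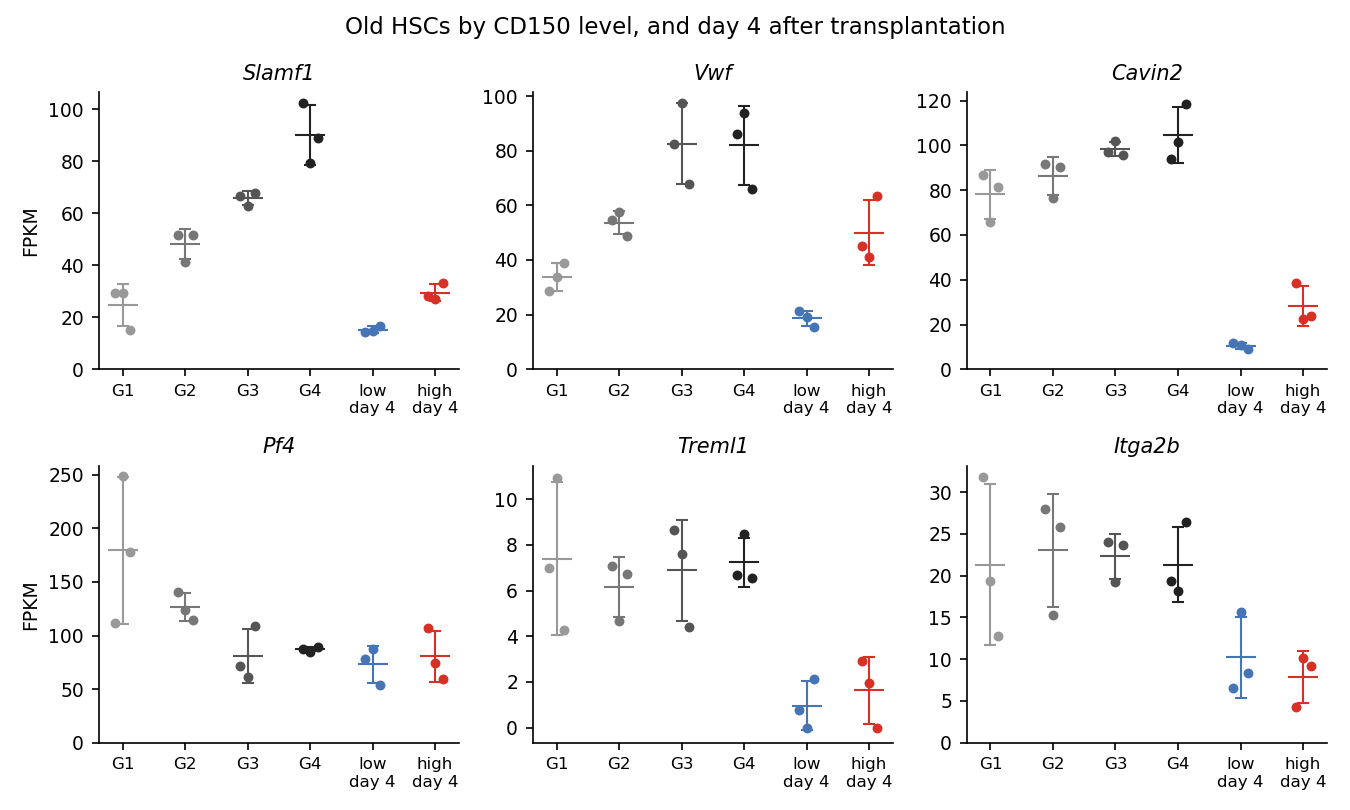
FPKM (vertical axes) of 6 genes in bulk libraries of old HSCs in 4 groups of CD150 level (G1 lowest, G4 highest) and of CD150low-derived and CD150high-derived HSCs on day 4 (horizontal axes), with 1 point per library and bars for the mean and SD of 3. *Vwf* and *Slamf1* lie lower in G1 than in G4, *Vwf* and *Cavin2* lie higher in the CD150high-derived libraries of day 4, and *Pf4*, *Treml1* and *Itga2b* overlap on day 4.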

How the data were processed

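Single-cell UMI counts were deposited by the authors as unnormalized matrices from Cell Ranger with the mm10 genome, restricted to protein-coding genes. Bulk values were deposited by the authors as FPKM, and the submitters' processing notes name HISAT2 2.0.0, HTSeq 0.12.4, Cufflinks and SAMtools 1.14. Read totals behind the FPKM values are unknown.

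Cells were kept at 2000 or more genes and 5% or less mitochondrial UMIs, and gated at 2 or more *Pf4* and *Treml1* UMIs. The members and gene lists were chosen with earlier results of these data known, and the classes of 20 or more and of 2 to 19 UMIs were added after seeing the data. UMIs were summed per library and set of cells, scaled to CPM and compared between libraries for genes of at least 20 CPM, with 1.5-fold as the threshold and no p-value, as each fraction had 1 library. Genes named singly were the 12 highest and 12 lowest ratios among genes of at least 50 CPM, the highest and lowest gated over other ratios, and listed genes. Intervals are exact binomial or Poisson at 95%, and Newcombe for differences of shares. They cover counting error only. Shares were also computed after thinning each cell to the 10th percentile of UMIs. Doublets were scored with Scrublet (scanpy 1.11.5) at an assumed rate of 0.06 and not removed.

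Bulk FPKM were tested as log2(FPKM + 1) with limma 3.58.1 in R 4.3.3, in genes averaging 1 FPKM or more, with Benjamini-Hochberg adjustment at 0.05. Labels pair the groups G1 to G4 by mouse, and deviations of same-mouse G1 and G4 samples correlated at 0.0048, 0.0951 and 0.0853. Labels do not say that the day 4 libraries came from separate animals, so their p-values measure only the spread between these samples. The steps were checked on simulated data, in which summed UMIs were drawn without differences between cells, so genes held by few cells were not covered. Some genes are not reported here.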

Additional observations from a re-analysis of the deposited data

Results flagged for a closer look

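In barcodes with under 1000 genes, which no comparison of gated cells used, *Pf4* had 194.8 CPM in the CD150low and 623.2 CPM in the CD150high day 14 library, against 32.67 and 41.26 CPM in the young and old fresh libraries. *Hba-a1*, an alpha globin gene, had 3709 CPM in such CD150low and 67.14 CPM in such CD150high barcodes, against 4.668 and 3.301 CPM in the fresh libraries.

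Among the listed or named genes with at least 20 CPM, 5 had opposite directions of gated over other kept cells in the day 14 libraries with both counting intervals clear of 0, and these differences were not tested. The log2 ratio was 0.12 in the CD150low and -0.42 in the CD150high library for *Jun*, 0.15 and -0.14 for *Jund*, 0.041 and -0.123 for *Srgn*, a granule proteoglycan, -0.41 and 3.62 for *Hba-a1*, and 0.41 and -1.23 for *Cpa3*.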

How the results depend on the processing

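The CD150high-derived share stayed above the CD150low-derived share under every gate, filter and depth tried. A gate of 1 UMI gave 42.77% and 70.62% (27.85 points), 3 UMIs 16.79% and 38.9% (22.11 points), and thinning 16.96% and 30.68% (13.72 points). Gates chosen after seeing the data gave 3.865% and 14.23% (10.36 points) at 20 UMIs, 2.984% and 8.448% (5.464 points) at 20 UMIs thinned, and 9.1% and 19.06% (9.96 points) at 4 UMIs thinned. Against 58 higher and 83 lower genes in gated cells, thinning gave 126 and 136, a floor of 10 CPM 106 and 142, a floor of 50 CPM 20 and 35, a 2-fold threshold 14 and 18, and the gate of 20 UMIs 148 higher. G4 against G1 gave 5 higher genes without a filter and 22 higher and 15 lower in the fit over all 24 libraries. With the mouse as a replicate block it gave 4 lower genes, and the *Vwf* adjusted p was 0.0343. On day 4, no filter gave 2 lower, the replicate block 2 higher and 1 lower, and the fit over all libraries 20 higher and 11 lower. The day 4 numbers carry no stated pairing (correlations -0.0065, -0.0556 and -0.0757). Leaving out 1 library gave 2 to 24 higher and 0 to 3 lower genes for G4, and 0 to 2 and 0 to 8 on day 4. It turned the sign of some log2 differences that had not passed, with ranges in G4 of -0.253 to 0.339 for *Treml1* and -0.229 to 0.397 for *Itga2b*, and on day 4 of -0.098 to 0.315 for *Pf4*, -0.044 to 0.953 for *Treml1* and -0.57 to 0.014 for *Itga2b*. The causes were not tested. Depth limits genes under 20 CPM, and 1 library per fraction limits all day 14 comparisons.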
